A study of Mus musculus with 3 samples.

Results

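AP-1 is a dimer of basic leucine zipper proteins in which a Jun protein (c-Jun, JunB or JunD) pairs with another Jun, with a Fos protein (c-Fos, FosB, Fra-1 or Fra-2) or with a relative such as Atf3. Fos, Fosb, Jun, Junb, Egr1, Atf3 and Ier2 belong to the immediate early genes, which growth factors and stress switch on within minutes without new protein synthesis, chiefly through serum response factor, its Elk partners and CREB, and whose short-lived transcripts decay soon after. Fosl1 and Fosl2, which encode Fra-1 and Fra-2, follow later and are held up by sustained ERK signalling, and Jund is expressed in most resting cells. In mammary tumours driven by Neu, the receptor signals through Ras and ERK, which lie upstream of these genes.

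The 10 genes described here are the 4 Fos family genes Fos, Fosb, Fosl1 and Fosl2, the 3 Jun family genes Jun, Junb and Jund, and the factor genes Atf3, Egr1 and Ier2, taken by name from tables of 47480 gene symbols. RNA-seq libraries came from 3 mammary tumours of the FVB-MMTV-Neu strain, in which the mouse mammary tumour virus promoter drives a rat Neu transgene in mammary epithelium. All 3 belong to 1 untreated group. Per the labels' protocols, tumours were injected orthotopically into syngeneic hosts, reached 5 mm and then grew for 7 days, whereas the series' design text describes tumours of untreated MMTV-Neu mice, so the host tissue around them is uncertain. The labels used here state no age, sex or number of donors, so the spread between the samples may be technical in part. The numbers 1 to 3 only name the tumours.

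The 10 genes split into 3 sets by where they were high. Fos and Egr1 were highest in tumour 1. Fosl1, Fosl2, Junb and Jund were lowest there and highest in tumour 2. Jun, Fosb, Atf3 and Ier2 stayed within 1.93-fold across the tumours. With 1 library per tumour, no difference between tumours has a replicate check, and a change in the number of expressing cells cannot be told apart from a change in RNA per cell.

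The libraries held between 11388769 (tumour 2) and 47449153 (tumour 1) estimated counts, with 17147394 in tumour 3. Levels are in CPM, counts relative to library totals scaled by the trimmed mean of M values (TMM) and expressed on the usual per-million basis. Tumour 1 stood apart from the others in many ways. It was sequenced in lane 1, the others in lane 5, so lane and tumour 1 cannot be told apart, and the values of tumours 2 and 3 are the within-lane values. The ribosomal RNA symbol Rn18s-rs5 made up 0.2, 7.87 and 6.68% of all counts in tumours 1, 2 and 3. The 10 skeletal muscle markers summed to 4.73, 51647 and 22886 CPM in tumours 1, 2 and 3 (Ckm 0.477, 32750.3 and 11606 CPM, Acta1 0.202, 1839 and 1573 CPM), and none was at 0. The 3 of these markers past the filter were all called below in tumour 1, as were 20.7% of all genes. The biological coefficient of variation over all genes was 63.7% for the 3 tumours and 33.2% for tumours 2 and 3. The part of these differences in the results below was not tested.

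The promoters of Fos and Junb are shown because they had the largest difference of tumour 1 upward and, among genes with a promoter entry, downward. Each sequence runs 5′ to 3′ from 250 bases before to 50 bases after the RefSeq start in build GRCm38.p6, Fos from chr12:85473640-85473939 on the plus strand and Junb from chr8:84978699-84978998 on the minus strand. Capitals mark matches to the cAMP response element core TGACGT, to TATAAA and to CCAAT, searched on both strands.

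Fos: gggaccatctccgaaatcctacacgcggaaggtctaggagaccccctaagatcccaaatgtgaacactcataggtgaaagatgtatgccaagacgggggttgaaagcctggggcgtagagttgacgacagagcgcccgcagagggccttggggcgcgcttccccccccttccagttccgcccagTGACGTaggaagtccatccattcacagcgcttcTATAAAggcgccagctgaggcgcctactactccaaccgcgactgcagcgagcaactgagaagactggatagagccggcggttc
Junb: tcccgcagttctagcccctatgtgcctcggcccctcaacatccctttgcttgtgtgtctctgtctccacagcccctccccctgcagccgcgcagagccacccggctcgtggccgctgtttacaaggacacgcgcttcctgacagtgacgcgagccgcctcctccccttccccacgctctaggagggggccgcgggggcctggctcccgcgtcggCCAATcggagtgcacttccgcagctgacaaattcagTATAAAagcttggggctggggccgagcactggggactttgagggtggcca

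In the Fos window, TGACGT lies at −66 to −61 and TATAAA at −33 to −28 relative to the start. In the Junb window, CCAAT lies at −36 to −32, and TATAAA begins at the RefSeq start itself. GENCODE M21 starts Junb farther downstream, at 84978718, so these Junb positions depend on the annotation used. The 2 windows differ in which of these letters they hold, and their places were not compared. Of all 32544 promoters of this length in the table, 7.55% hold TGACGT, 13.6% hold TATAAA and 37.4% hold CCAAT. The full element TGACGTCA (1.8% of promoters), the AP-1 element TGACTCA (5.19%) and the serum response CArG box (1.64%) have no match in either window, which says only that these letters are not there. TGACGT is contained in TGACGTCA. Of the 10 genes, 7 had a promoter entry. Among the other 5 of these, Atf3 holds TGACGT at −8 to −3 on the minus strand, and Fosb (−50 to −42) and Fosl2 (−79 to −71) hold the Egr-type element GCGNGGGCG, found in 5.6% of promoters. GENCODE M21 begins the Atf3 gene at 191218039 and the Fosl2 gene at 32135801, both outside the RefSeq windows. The Atf3 and Fosl2 positions thus also depend on the annotation used.

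**Figure D1:**
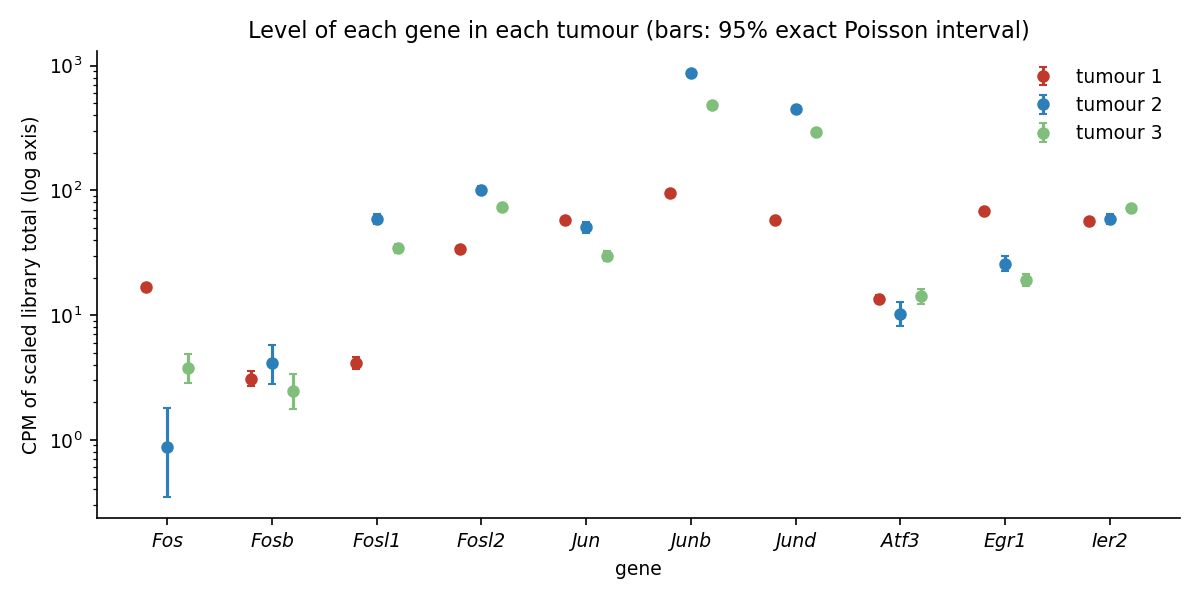
CPM of each of the 10 genes in tumours 1, 2 and 3 on a log axis, with bars for the 95% exact Poisson interval of the count, which covers counting error only. Fos and Egr1 are highest in tumour 1, whereas Fosl1, Fosl2, Junb and Jund are lowest there.

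All 10 genes passed the filter on low counts, as did 12710 genes in all. Fos did so narrowly, with 7 counts in tumour 2. With 1 group, the filter asked for its minimum level in all 3 tumours. Genes nearly absent from a tumour are thus not among the 12710, however high elsewhere. Examples in either direction are Pvalb (2, 26401 and 29516 counts in tumours 1, 2 and 3) and Egr3 (715, 4 and 0 counts). A chi-square test of each gene's counts against the scaled library totals, which compares these libraries and not conditions, found a difference beyond counting noise (Benjamini-Hochberg adjusted at 0.05) for 9 of the 10 genes, all but Fosb. The same held for 94.2% of all genes tested, so the members' share is near the background. A gene was called above or below in a tumour when it also differed by 2-fold or more, in the same direction, from each of the remaining tumours. In tumour 1, 2 of the 10 genes (Fos and Egr1) were called above, against 22.1% of all genes. Called below in tumour 1 were 4 of the 10 (Fosl1, Fosl2, Junb and Jund), against 20.7% of all genes. With library totals alone as the scaling, the split was 3 above (Fos, Jun and Egr1) and 3 below (Fosl1, Junb and Jund), against 40.4% of all genes above and 10.5% below under that scaling. In tumour 2 no member was called above (5.43% of all genes) and 1, Fos, was called below (7.14%). In tumour 3 no member was called above (0.865%) or below (1.35%).

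Of the Fos family, Fos encodes c-Fos, the textbook immediate early partner of c-Jun. It had 1154, 7 and 59 counts in tumours 1, 2 and 3, or 16.7 CPM (95% Poisson interval 15.7 to 17.7), 0.87 CPM (0.35 to 1.79) and 3.75 CPM (2.85 to 4.84). The 3 intervals do not overlap, with tumour 1 highest, tumour 3 next and tumour 2 lowest. The difference of tumour 1 from the mean of the other tumours was 3.15 on the log2 scale. Against tumour 3 alone it was 2.11, and against tumour 2 alone 4.18, so the low value of tumour 2 sets much of its size. Tumour 2 was also the shallowest library, and the part of depth in this value was not tested. Fos had the largest spread of the 10 genes (SD of log2 CPM 2.08), above 96.4% of all genes.

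Fosl1 encodes Fra-1, a Fos protein without the strong activation domain of c-Fos. It was at 4.13 CPM (3.67 to 4.64) in tumour 1, 58.5 CPM (53.4 to 64.1) in tumour 2 and 34.4 CPM (31.6 to 37.5) in tumour 3. This is the reverse order of Fos. The log2 difference of tumour 1 from the others was −3.42. On the opposite strand Fosl1 overlaps Ccdc85b, which was at 19.5, 436 and 235 CPM, and since no strand setting is given, reads of the overlap cannot be told apart.

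Fosl2, which encodes Fra-2, was the most abundant Fos family gene in counts at 34.2, 100.4 and 74.0 CPM. Its log2 difference in tumour 1 was −1.33, the smallest among the 4 genes called below. That call ended with library totals alone as the scaling, where the difference was −0.49. Fosb, whose protein dimerizes with Jun proteins like c-Fos, had the lowest mean CPM of the 10, at 3.09, 4.10 and 2.48 CPM, and the intervals of all 3 tumours overlap in part (2.69 to 3.54, 2.82 to 5.76 and 1.76 to 3.39 CPM).

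Within each tumour, the make-up of the Fos family does not depend on the scaling between libraries. The shares were not recomputed with the trend with GC content and transcript length across all genes removed. That removal moved the tumour 1 difference of Fosl1 from −3.42 to −2.36 and that of Fos from 3.15 to 3.50. Per kilobase of the longest transcript, Fos made up 48.9% of the summed family level in tumour 1, 0.855% in tumour 2 and 5.52% in tumour 3. Fosl1 made up 13.7, 65.1 and 57.3% in the same order. The leading gene was Fos in tumour 1 and Fosl1 in the other tumours, while Fosl2 stayed between 31.8 and 35.1% and Fosb between 2.03 and 5.06%. In counts alone, Fos was 80.1% of the reads of Fos and Fosl1 together in tumour 1 (95% exact binomial interval 78.0 to 82.2%), 1.46% in tumour 2 (0.591 to 2.99%) and 9.82% in tumour 3 (7.56 to 12.5%). The summed family level was 16.2, 48.3 and 32.2 CPM per kb, that is 0.402 times the mean of the others in tumour 1, and 0.736 times with library totals alone.

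**Figure D2:**
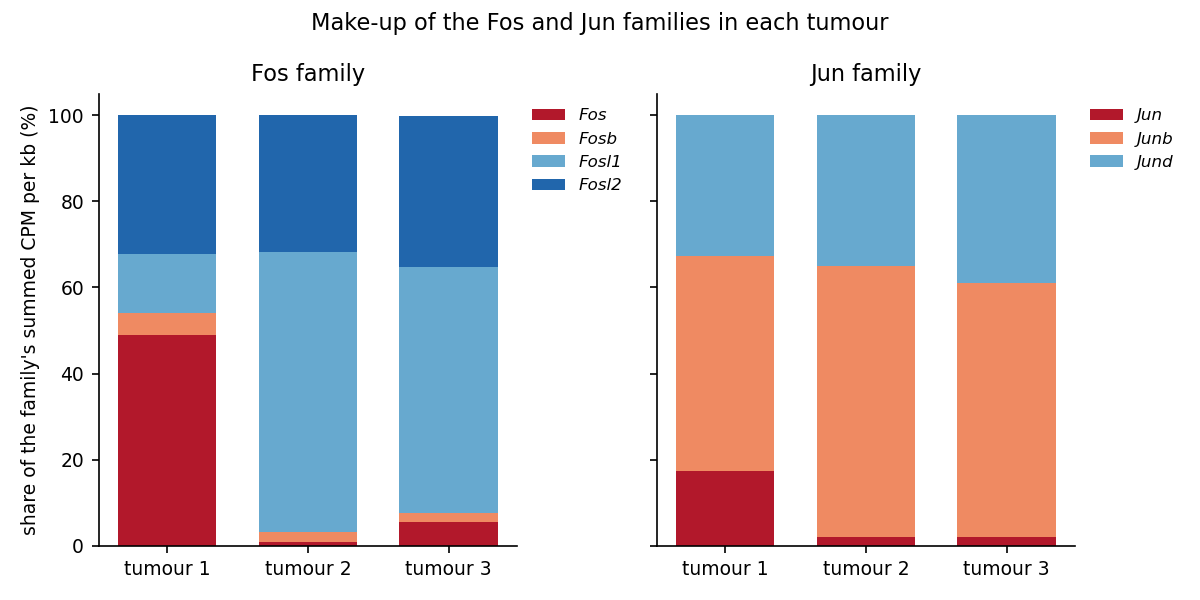
Share of each gene in the summed CPM per kilobase of the Fos family and of the Jun family, in percent, for tumours 1, 2 and 3. Fos fills 48.9% of its family in tumour 1 against 0.855 and 5.52% in tumours 2 and 3, and Jun 17.3% against 2.08 and 2.06%.

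Of the Jun family, Junb encodes JunB, which can hold back c-Jun on some promoters. It was at 94.7 CPM (92.4 to 97.0) in tumour 1, 871 CPM (850.5 to 891) in tumour 2 and 485 CPM (474 to 496) in tumour 3. The difference of tumour 1 was −2.78 on the log2 scale, and tumour 2 lay above tumour 3 by 0.83. By mean log2 CPM Junb ranked above 97.5% of all genes.

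Jund, which encodes the broadly expressed JunD, moved almost in parallel at 57.4, 448 and 296 CPM. The centred log2 profiles of Junb and Jund over the 3 tumours lay 0.20 apart (Euclidean distance), the closest of all 45 pairs of members, and Fosl1 came next to them at 0.53 and 0.63. The log2 difference of Jund in tumour 1 was −2.66. After removal of the trend with GC content and transcript length across all genes it was −0.79, which ended its call, and that of Junb was −1.35. Jund overlaps the antisense gene Gm11175 (311, 0 and 0 counts in tumours 1, 2 and 3), and Junb overlaps Prdx2 on the opposite strand (136, 347 and 357 CPM).

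Jun, which encodes c-Jun, the strongest activator of the family and a target of Jun kinases, did not follow Junb and Jund. It was at 57.7 CPM (55.9 to 59.5) in tumour 1, 50.7 CPM (45.9 to 55.9) in tumour 2 and 29.9 CPM (27.2 to 32.7) in tumour 3, and was not called in any tumour. With library totals alone as the scaling, its difference in tumour 1 was 1.41 in place of 0.57, and it was called above. Its overlapping antisense gene Junos was at 0.578, 2.98 and 2.03 CPM.

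Per kilobase, Jun was 17.3% of the Jun family level in tumour 1, against 2.08 and 2.06% in tumours 2 and 3. Junb was the leading member in every tumour, with 49.9, 62.8 and 59.0%. The 2 lane 5 tumours had nearly the same Jun family make-up, and tumour 1 a different one. These shares too were not recomputed without the GC and length trend. Its removal moved the tumour 1 difference of Jun from 0.57 to 1.06 and that of Junb from −2.78 to −1.35. Of the counts of Jun and Junb together, Jun was 37.9% in tumour 1 (36.9 to 38.8%), 5.50% in tumour 2 (4.99 to 6.05%) and 5.80% in tumour 3 (5.30 to 6.33%). Of the counts of Junb and Jund together, Junb was 62.3% in tumour 1 (61.3 to 63.2%), 66.0% in tumour 2 (65.1 to 66.9%) and 62.1% in tumour 3 (61.3 to 63.0%). This share was higher in tumour 2, whose interval does not overlap the others, by far less than the share of Jun varied. The summed family level was 105, 766 and 455 CPM per kb, so tumour 1 was at 0.172 times the mean of the others, and at 0.317 times with library totals alone.

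Egr1 encodes a zinc finger factor that serum response factor and Elk switch on together with Fos. It was at 68.7 CPM (66.8 to 70.7) in tumour 1, 25.9 CPM (22.5 to 29.6) in tumour 2 and 19.2 CPM (17.1 to 21.5) in tumour 3. Like Fos it was highest in tumour 1, but unlike Fos it was lower in tumour 3 than in tumour 2. Its log2 difference in tumour 1 was 1.62. Atf3, a stress-induced bZIP factor that often represses, was at 13.5, 10.2 and 14.1 CPM. Ier2, an immediate early gene of nuclear function, was at 56.7, 59.0 and 71.9 CPM. Neither was called in a tumour, and Ier2 had the smallest spread of the 10 (SD of log2 CPM 0.18), below which lay only 6.51% of all genes. After the GC and length trend was removed, the log2 difference of Ier2 in tumour 1 was 1.23 in place of −0.20, and it was not called.

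Over the 10 genes, the median log2 difference was −0.12 in tumour 1, 0.42 in tumour 2 and 0.29 in tumour 3, beside 0.11, −0.09 and 0.01 over all genes tested. The mean over members in tumour 1 was −0.49. These medians describe little, since members went both ways, and the median in tumour 1 changed sign with library totals alone (0.72, where all genes had a median of 0.95) and without the GC and length trend (0.46, all genes 0.16). The median SD of log2 CPM was 0.88 for the members and 0.72 for all genes.

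**Figure D3:**
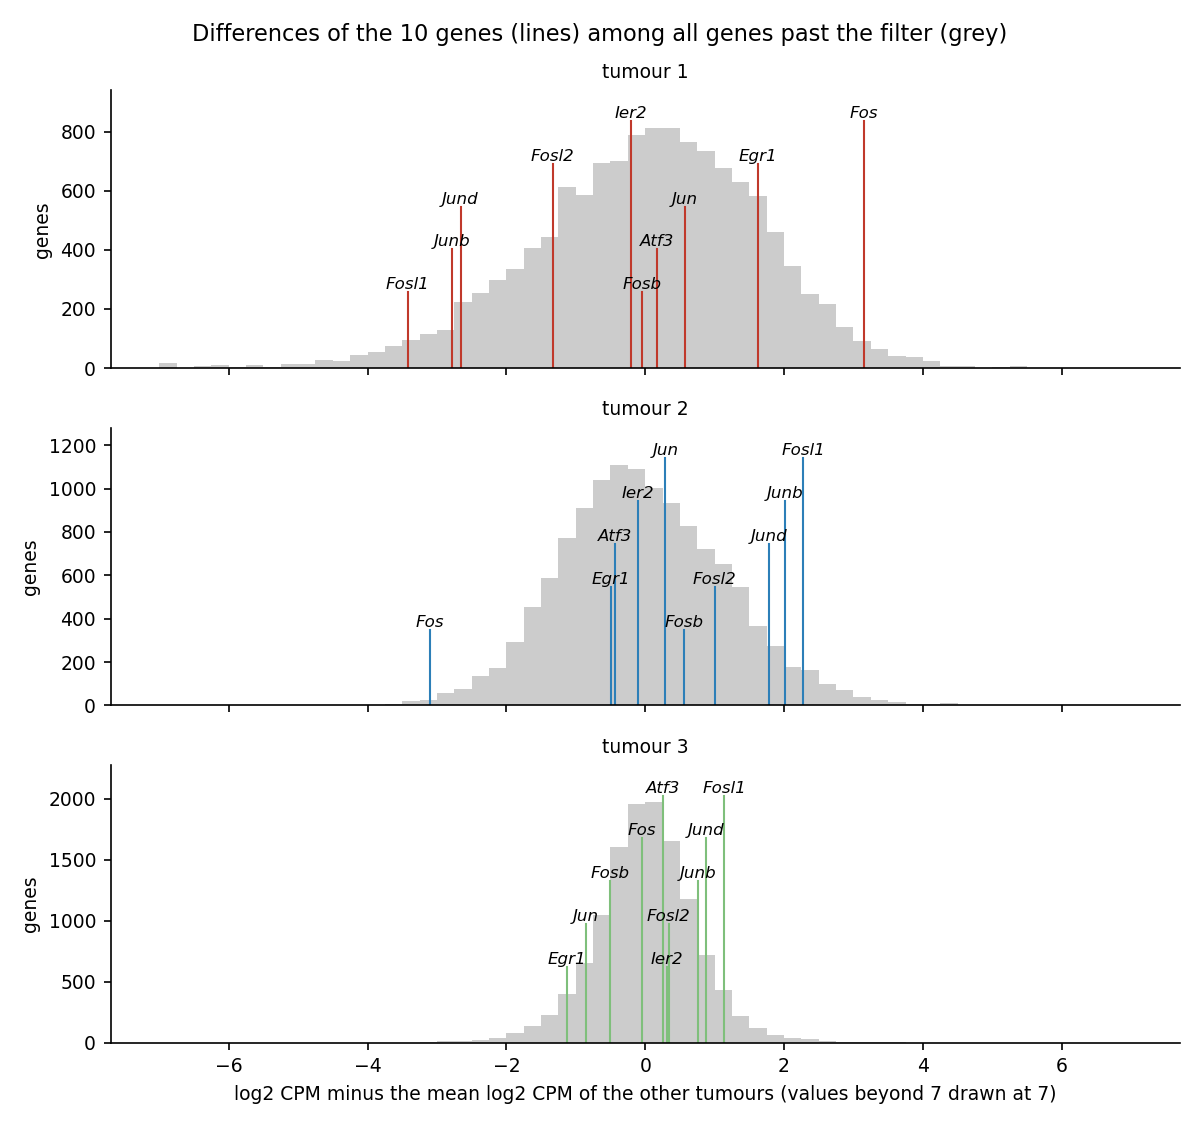
Distribution of log2 CPM minus the mean log2 CPM of the other tumours, for tumours 1, 2 and 3, with all genes past the filter in grey and the 10 genes as lines. In tumour 1 the 10 genes spread from −3.42 (Fosl1) to 3.15 (Fos), and in tumour 3 from −1.13 (Egr1) to 1.14 (Fosl1).

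Tumours 2 and 3, sequenced in the same lane, were compared as the within-lane pair. Fos did not pass the filter in that pair. Of the other 9 genes, 8 differed beyond counting noise, all but Fosb, as did 62.0% of 13052 genes tested, again a comparison of libraries only. Tumour 2 was above tumour 3 by 0.83 for Junb, 0.75 for Fosl1, 0.74 for Jun, 0.67 for Fosb, 0.58 for Jund, 0.42 for Fosl2 and 0.41 for Egr1 on the log2 scale, and below it by −0.48 for Atf3 and −0.30 for Ier2. For the 5 of these genes called in tumour 1 (Fosl1, Fosl2, Junb, Jund and Egr1) these differences were smaller than those of tumour 1 from the other tumours, and for Jun, Fosb, Atf3 and Ier2 they were larger. That split follows in part from the call itself, which required 2-fold or more from each of the remaining tumours. None of the 9 reached 2-fold, where 7.43% of all genes were called above and 8.45% below in tumour 2, so a count of 0 of 9 is near the background. Fos was at 0.87 CPM in tumour 2 and 3.75 CPM in tumour 3.

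Compared with each other per kilobase, Junb had the highest mean level of the 10 at 267 ± 214 CPM per kb (SD, n = 3), followed by Jund at 160 ± 118, Ier2 at 41.1 ± 5.37, Fosl1 at 17.4 ± 14.6, Jun at 14.5 ± 4.54, Fosl2 at 10.6 ± 5.10, Egr1 at 8.46 ± 5.99, Atf3 at 6.35 ± 1.06, Fos at 3.37 ± 4.0 and Fosb at 0.853 ± 0.217 CPM per kb. Of neighbours in this order, only Ier2 and Fosl1 had ranges over the tumours that did not overlap. In tumour 1, Ier2 (37.3 CPM per kb) lay above Jund (34.4), and Fosl1 (2.22) lay below Fos (7.91).

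Among features of the transcripts, GC content went in part with the differences. Jun, Junb, Jund and Ier2 have 1 exon, Egr1 has 2 and the other genes have 4. The longest transcripts of the 4 genes called below in tumour 1 had GC contents of 58.5% (Fosl1), 53.1% (Fosl2), 62.6% (Junb) and 67.1% (Jund), and those called above 51.9% (Fos) and 57.3% (Egr1). Ier2, at 60.9% and with 1 exon as well, was not called. Across the 10 genes, Spearman's rho between the difference in tumour 1 and GC content was −0.67 (Pearson's r −0.63). With transcript length rho was 0.47 (Pearson's r with log2 length 0.26). Across 12343 genes the rho values were −0.30 for GC content and 0.24 for length. These are descriptions across genes of the same 3 libraries, and the count-weighted GC content of the libraries was 50.4, 53.7 and 52.5%. With the trend removed, Fos (3.50), Egr1 (1.98), Fosl1 (−2.36), Fosl2 (−1.46) and Junb (−1.35) were still called in tumour 1.

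**Figure D4:**
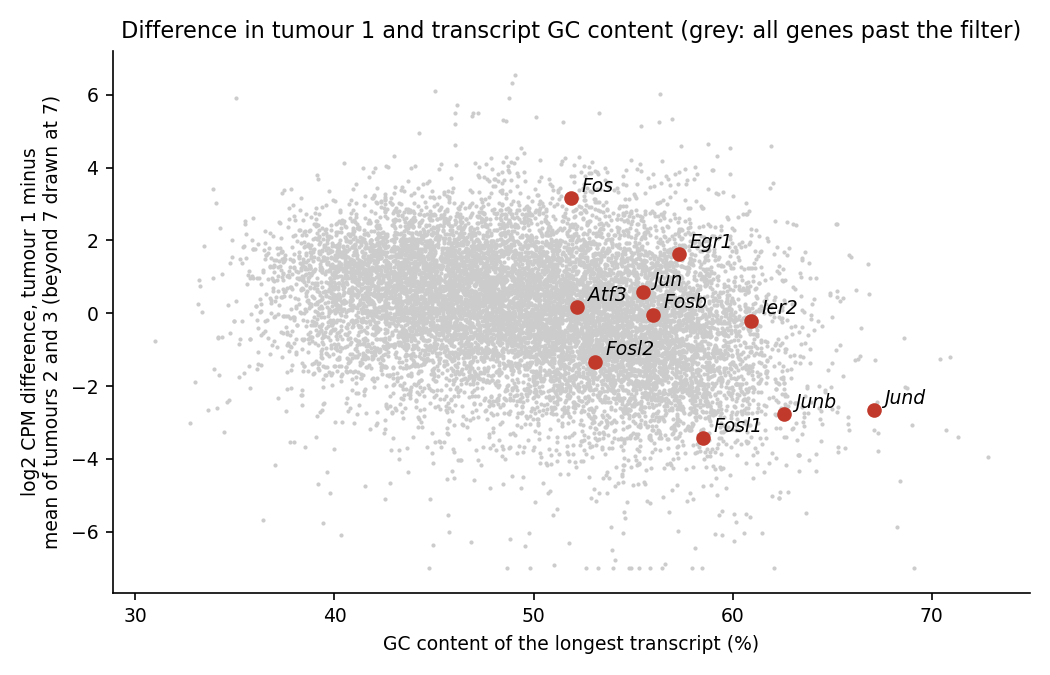
Log2 CPM difference of tumour 1 from the mean of tumours 2 and 3 against GC content of the longest transcript in percent, with the 10 genes in red and all genes past the filter in grey. Junb (62.6%) and Jund (67.1%) lie at high GC content and low difference, while Ier2 (60.9%) has a difference of −0.20.

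By position in GRCm38 (mm10), the genes lie apart, save for 2 neighbours. Fos is on chromosome 12 (85473890 to 85477273), Fosb on chromosome 7 (19302696 to 19310051), Fosl1 on chromosome 19 (5447547 to 5455946), Fosl2 on chromosome 5 (32135801 to 32157842), Jun on chromosome 4 (95049034 to 95052222), Atf3 on chromosome 1 (191170296 to 191218039) and Egr1 on chromosome 18 (34859823 to 34864984). Chromosome 8 carries Jund (70698949 to 70700616), Ier2 (84661331 to 84662852) and Junb (84974484 to 84978718). Ier2 and Junb are 311.6 kb apart with 18 protein-coding genes between them, yet Junb was 9.19-fold apart between its highest and lowest tumour and Ier2 1.27-fold.

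Other bZIP factors that can join AP-1 dimers also went in several directions. Of 14 genes, all past the filter, 2 were called above in tumour 1 (Atf2 and Mafk), against 22.1% of all genes. Called below were 4 (Batf, Batf2, Batf3 and Maf), against 20.7%. The 3 with the highest mean CPM were not called. These were Atf4, the effector of the integrated stress response, at 279, 273 and 391 CPM, Nfe2l1 at 172, 378 and 296 CPM, and Mafg at 186, 370.5 and 257 CPM. Maf ranged most, at 17.1, 608 and 158 CPM, the same order as Junb. The list's median difference in tumour 1 was −0.61, beside 0.11 for all genes. With library totals alone it was 0.23, beside 0.95 for all genes.

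Other immediate early genes were called in both directions. Of 30, 27 passed the filter, of which 7 were called above in tumour 1 (Egr2, Klf4, Klf10, Nfkbiz, Rhob, Socs3 and Myc), against 22.1% of all genes. Another 7 were called below (Ier5l, Nr4a3, Klf2, Csrnp1, Gadd45b, Trib1 and Plk3), against 20.7%, so both counts are near the background. The list's median difference was −0.13, beside 0.11 for all genes. Highest in mean CPM were Ier5l at 34.9, 879 and 371 CPM, Klf2, a Krüppel-like factor that also ranged most, at 15.3, 523 and 187 CPM, and Ier3, a survival gene, at 214, 111 and 106 CPM. Ier5l and Klf2 thus had the order of Junb and Jund, and Ier3 that of Egr1. With library totals alone 11 were above and 4 below, where 40.4% of all genes were above and 10.5% below. With the GC and length trend removed 7 were above and 4 below, where 21.4% of all genes were above and 17.2% below.

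Upstream of the members, the genes of the kinase cascade and of the nuclear factors it acts on differed in direction. Of 21 listed genes, 20 passed the filter, with 5 called above in tumour 1 (among them Mkl2, Map2k1 and Rps6ka1), against 22.1% of all genes. Another 7 were called below (Srf, Elk1, Elk3, Elk4, Mkl1, Map2k2 and Map2k7), against 20.7%. Srf, the serum response factor, was at 85.3, 834 and 364 CPM, in the order of Junb rather than of Fos and Egr1. Mapk3, which encodes ERK1, was at 372, 961 and 458 CPM. Map2k7, a kinase of the Jun kinase branch, ranged most at 51.3, 651 and 343 CPM. With library totals alone 10 were above and 5 below, under the same shares of all genes as given for that scaling above.

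Among genes that restrain the members or shorten the life of their transcripts or proteins, 15 of 16 listed symbols were in the tables and passed the filter. Of these, 5 were called above in tumour 1 (Zfp36l2, Itch, Sik1, Dusp4 and Dusp5), against 22.1% of all genes, and 1 below (Nab2), against 20.7%. With DESeq2 size factors 4 were above (20.5% of all genes) and 2 below (22.1%). Nab2, a repressor that binds Egr1, was at 30.6, 222 and 144 CPM, opposite in order to Fos and low where Egr1 was high. The ERK phosphatase gene Dusp6 was at 199, 355 and 363 CPM, and the RNA-binding protein gene Khsrp at 133, 126 and 131 CPM. Dusp4, another ERK phosphatase, ranged most at 69.8, 4.85 and 4.83 CPM.

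Textbook targets of AP-1 were called below in tumour 1 more often than above. Of 22 genes, 20 passed the filter, with 9 below (Mmp3, Mmp9, Mmp10, Plaur, Cd44, Timp1, Hmox1, Mt1 and Mt2), against 20.7% of all genes. Another 3 were above (Mmp13, Spp1 and Areg), against 22.1%. The list's median difference was −1.0, beside 0.11 for all genes. With library totals alone it was −0.16 beside 0.95, with 5 above (40.4% of all genes) and 7 below (10.5%). Spp1, which encodes osteopontin, was at 4580, 602 and 716 CPM. The inhibitor of metalloproteases Timp1 was at 56.4, 1970.4 and 837 CPM, the metallothionein gene Mt1, which ranged most, at 30.2, 1339 and 779 CPM, and Ccnd1, which encodes cyclin D1, at 674, 1097 and 1227 CPM. Timp1, with Mmp3 (21.7, 169.8 and 74.0 CPM) and Mmp9 (13.3, 176 and 74.9 CPM), chosen after their values were seen, had the order of Junb.

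Markers of several cell types differed between the tumours, not all with the same split. Among all genes, 22.1% were called above and 20.7% below in tumour 1, 7.14% below in tumour 2 and 1.35% below in tumour 3. In tumour 1 these shares were 40.4 and 10.5% with library totals alone, and 21.4 and 17.2% with the GC and length trend removed. Luminal markers, which define the labelled tissue, were present throughout, with 7 genes summing to 2058, 1651 and 2522 CPM in tumours 1, 2 and 3, and 1 of 7 called below in tumour 1 (Cldn7), 2 below in tumour 2 (Epcam and Cldn3) and 1 below in tumour 3 (Krt19). In tumour 1 the luminal count was 3 above and 0 below with library totals alone, and 4 above and 0 below with the GC and length trend removed, so its direction depends on the processing. Of 5 basal markers 4 were called above in tumour 1 (Krt5, 64.4, 1.62 and 1.46 CPM, Krt14, 107, 12.4 and 6.74 CPM, Krt17, 44.8, 10.3 and 6.93 CPM, and Trp63, 36.5, 3.23 and 3.37 CPM). The fifth, Acta2, was not called at 263, 370.5 and 245 CPM and makes up much of the list's sums of 515, 398 and 263 CPM. Below in tumour 1 were 3 of 6 endothelial markers (sums 184, 1655 and 612 CPM), 3 of 3 red blood cell markers (106, 1485 and 835 CPM), 3 of 7 macrophage markers (922, 3333 and 2197 CPM) and 3 of 8 fibroblast markers (4024, 6564 and 3557 CPM). With library totals alone the macrophage count was 1 above and 1 below, and the fibroblast count 2 above and 1 below. The red blood cell count was 0 above and 1 below with library totals alone, and 0 above and 2 below with the GC and length trend removed. The T and NK cell markers summed to 3.79, 17.4 and 15 CPM, with 3 of the 4 past the filter below. That count was 2 with library totals alone and 4 with the GC and length trend removed. B cell markers summed to 0.838, 1.37 and 2.99 CPM, neutrophil markers to 38.2, 30.4 and 42.6 CPM, and adipocyte markers to 417, 289.8 and 230.3 CPM. Of the neutrophil markers, Retnlg and Mmp8 were at 0 in tumour 2, and Ly6g was at 0 in every tumour. Of the B cell markers, Cd79a and Ms4a1 were at 0 in tumour 2, and Ms4a1 also in tumour 3. No member was near 0 in a library apart from Fos in tumour 2. The part of these cell types in the levels of the 10 genes was not tested.

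**Figure D5:**
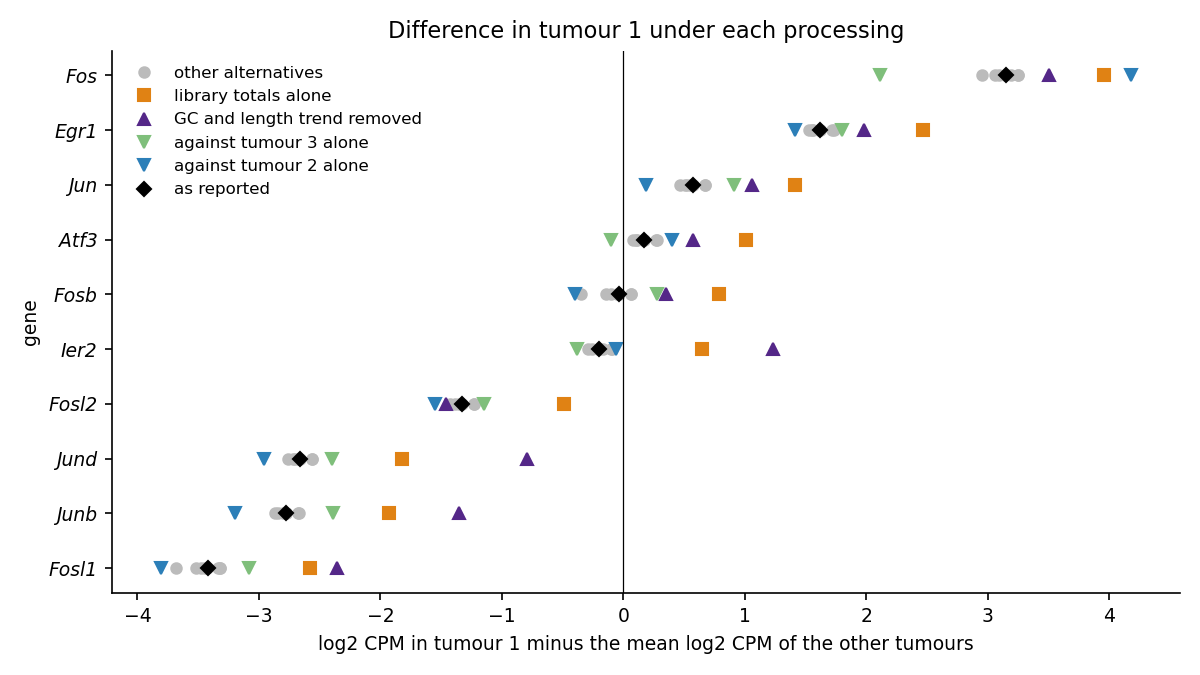
Log2 CPM of each gene in tumour 1 minus the mean of the other tumours, as reported (black) and under each alternative. Fos and Egr1 stay above 0 and Fosl1, Fosl2, Junb and Jund below 0 throughout, while Fosb, Atf3 and Ier2 cross it.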

How the data were processed

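RNA of 3 untreated tumours was prepared with Qiagen RNeasy kits, and Illumina TruSeq mRNA libraries were read as paired ends of 50 bases, per the labels' protocols. The deposited values are estimated counts by gene symbol, taken from the read-number column of Salmon per the file headers, unscaled for depth or length. STAR, SAMtools, Picard and build mm10 are named in the submitters' processing notes, while their versions, the annotation and any strand setting were not given in the sources used here. Counts were rounded and filtered with filterByExpr of edgeR 4.0.16 in R 4.3.3 (minimum count 10, minimum total 15), and TMM factors were 1.48, 0.722 and 0.936 for tumours 1, 2 and 3. Log2 CPM used a prior count of 2. The design holds 1 group, so no conditions were compared. Lengths and GC contents came from the longest GENCODE M21 transcript (97.1% of genes past the filter), promoters from RefSeq. The chi-square step was tested on simulated data. DESeq2 1.42.0 size factors, other scalings, filters, prior counts and thresholds, thinned counts, a loess trend on GC content and length, and each tumour left out served as alternatives. Intervals cover counting error only. The members and lists were chosen with earlier results of these data known. Named are all members and, per pathway list, the 3 genes highest in mean CPM, the gene with the largest range, and genes listed by their call, of which some are not reported here. Promoters were to be shown for the called members farthest apart in each direction, within the entries used here.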

Additional observations from a re-analysis of the deposited data

How the results depend on the processing

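In tumour 1, Fos and Egr1 were above and Fosl1, Fosl2, Junb and Jund below 0 under every alternative that gave a value, and DESeq2 size factors, upper-quartile factors, other filters and other prior counts kept the same 6 calls. The count of members above in tumour 1 was 1 with counts thinned to the smallest library, where Fos did not pass the filter (20.8% of all genes), and 1 at a 4-fold threshold (6.05%). The count below in tumour 1 stayed within 3 to 4. In tumour 2, 3 members were above at a 1.5-fold threshold (Fosl1, Junb and Jund, against 14.4% of all genes), and 0 were below with thinned counts (6.2%). In tumour 3, 1 member, Jun, was below at 1.5-fold (3.96%). Leaving out each tumour in turn gave between 0 and 4 members above and 0 and 2 below in tumour 2, and likewise 0 to 4 above and 0 to 2 below in tumour 3, since each is then set against 1 tumour. Against tumour 1 alone, the shares of all genes were 27.5% above and 31.4% below in tumour 2, and 23.6% above and 25.8% below in tumour 3. The median difference of the members was 0.72 in tumour 1 and −0.28 in tumour 2 with library totals alone, and 0.46 and 0.03 with the GC and length trend removed. In tumour 3 it ranged from −0.58 to 0.24 as each tumour was left out. The cause was not tested. Depth limits Fos most, with 7 counts in tumour 2.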

Other observations

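Of the other immediate early genes, 3 did not pass the filter and were in no count above. Egr3, a relative of Egr1, had 715, 4 and 0 counts in tumours 1, 2 and 3, and the 95% Poisson interval of the 0 in tumour 3 reaches 0.234 CPM. Arc, an immediate early gene known from neurons, had 590, 4 and 19 counts, and Egr4 had 12, 7 and 27. Egr3 and Arc, which were named after their values were seen, were thus highest in tumour 1, as were Fos, Egr1 and Egr2 (21.3, 5.22 and 2.48 CPM), and Egr4 was not. In the same libraries Nr4a1, an immediate early nuclear receptor gene, was at 60.8, 131 and 114 CPM and Nr4a3 at 0.723, 13.3 and 2.86 CPM. Their relative Nr4a2 was at 3.17, 2.61 and 2.35 CPM and did not differ beyond counting noise. These Nr4a genes were also named after their values were seen.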
